A study of Arabidopsis thaliana with 44 samples.

Results

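Whole Arabidopsis thaliana seedlings (ecotype Col-0) were raised for 14 days in darkness, either aboard the space station or in the same kind of hardware on the ground, and their messenger RNA was sequenced. The question here is how far the response to flight of seedlings labelled bzip28-2 differed from that of wild type. The comparison is a difference of differences, called the response difference here and the interaction in the plots: flight minus ground in bzip28, minus flight minus ground in WT, on the log2 scale after rescaling of the libraries. It rests on 16 of the 40 libraries that have a column in the deposited table. These are 4 bzip28 flight libraries, 4 bzip28 ground libraries, 4 WT flight libraries and 4 WT ground libraries. The bzip28 groups carry 1 mutant allele, bzip28-2, in the Col-0 background, and the WT groups are Col-0. All seedlings grew in the dark on medium with 0.5% sucrose, on 60 mm plates sown with 70 to 80 seeds each, and were fixed with RNAlater in the hardware. The labels describe 1 flight run and 1 ground run, so no p-value here covers differences between runs.

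The endoplasmic reticulum (ER) folds proteins that enter the secretory pathway, and an overload sets off the unfolded protein response (UPR). In Arabidopsis, bZIP28 is a transcription factor held in the ER membrane. Under stress it moves to the Golgi, where the proteases S1P and S2P release its DNA-binding part, which enters the nucleus and turns on chaperone genes such as BIP1 and BIP2. A parallel arm runs through the kinase and ribonuclease IRE1, which splices the messenger of BZIP60.

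The transcript of the mutated gene was read first. BZIP28 (AT3G10800; TAIR10.1 chromosome 3, 3379168 to 3381621, plus strand) stood at 77.9, 73.9, 86.8 and 103 rescaled FPKM (fragments counted per length of transcript and per size of library) in bzip28 flight libraries and at 63.0, 84.6, 51.4 and 76.7 in bzip28 ground libraries. It stood at 16, 16.4, 18 and 17.9 in WT flight libraries and at 28.0, 32.3, 29.3 and 28.9 in WT ground libraries. Every library labelled bzip28 thus lay above every WT library, and within bzip28 the flight and ground values overlapped. On the log2 scale bzip28 was 2.25 above WT in flight (SE 0.10, adjusted p = 8.8e-18) and 1.17 above WT on the ground (SE 0.10, adjusted p = 1.0e-09, limma). These values go against what the label would have at the transcript level. FPKM per gene does not tell which part of a transcript is covered or whether a functional protein is made. For that reason the groups are written below as the libraries labelled bzip28, shortened to bzip28, and every direction drawn here rests on that label. In the double mutant bzip28bzip60 (bzip28-2 bzip60-1 per the labels) BZIP28 averaged 3.87 ± 0.201 rescaled FPKM in flight and 3.09 ± 0.482 on the ground (SD, n = 4 each), below WT.

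The deposited values are FPKM without read counts, so the depth of each library is unknown. A single locus inside the ribosomal RNA genes, AT2G01021, took 13.2 to 35.9% of all FPKM in bzip28 flight libraries and 70.7 to 89.9% in bzip28 ground libraries, while the WT libraries had 2.97 to 47.2% in flight and 73.7 to 84.7% on the ground. The log2 scale factors that correct for such differences were 0.24 to 0.48 in bzip28 flight and -1.33 to -0.27 in bzip28 ground libraries, with WT at 0.21 to 0.53 in flight and -0.75 to -0.37 on the ground. The median gene had a within-group SD of 0.132 in bzip28 flight and 0.210 in bzip28 ground libraries, against 0.145 in WT flight and 0.186 in WT libraries on the ground (log2 scale). The 3 libraries with a log2 scale factor below -0.7, bzip28 ground replicates 1 and 2 and WT ground replicate 2, stand apart, and results without them are given beside calls that they change. Of 19186 tested genes (mean FPKM of at least 1), 11390 (59.4%) changed between flight and ground in bzip28, 35.1% higher and 24.2% lower, and 11590 (60.4%) in WT, 35.5% higher and 24.9% lower, at an adjusted p below 0.05 (limma, Benjamini-Hochberg). In these bulk samples, fewer cells of a type and less RNA per cell cannot be told apart.

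Against that background few genes were called for a difference between the flight responses of bzip28 and WT. The response difference passed the test for 9 of 19186 genes (0.0469%), of which 6 (0.0313%) were higher in bzip28 and 3 (0.0156%) were lower. At an unadjusted p below 0.05 there were 1506 genes (7.85%), 778 higher (4.06%) and 728 lower (3.79%). The count leaned on single ground libraries: without WT ground replicate 2 it was 21 higher and 10 lower, without bzip28 ground replicate 2 it was 6 higher and 10 lower, and without all 3 libraries of low scale factor it was 14 higher and 18 lower. With only the 16 libraries in the fit it was 0 higher and 1 lower. Of the genes called in both responses, 9685 moved in the same direction and 10 in opposite directions. A further 1695 genes were called in bzip28 only and 1895 in WT only, but the response difference itself was called for 1 of the genes called only in bzip28 and 2 of those called only in WT. The 95% interval of the response difference lay within 1 log2 unit of 0 for 16558 genes (86.3%), and within 0.5 for 8386. Its median over all tested genes was -0.000505, with a 10th percentile of -0.31 and a 90th percentile of 0.31. The median gene had a standard error of 0.19, so a difference of less than about 0.38 was inside the unadjusted 95% interval of a typical gene. A call after adjustment asked for more than that: PDIL2-2, at 0.73 with a standard error of 0.15, was not called.

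**Figure D1:**
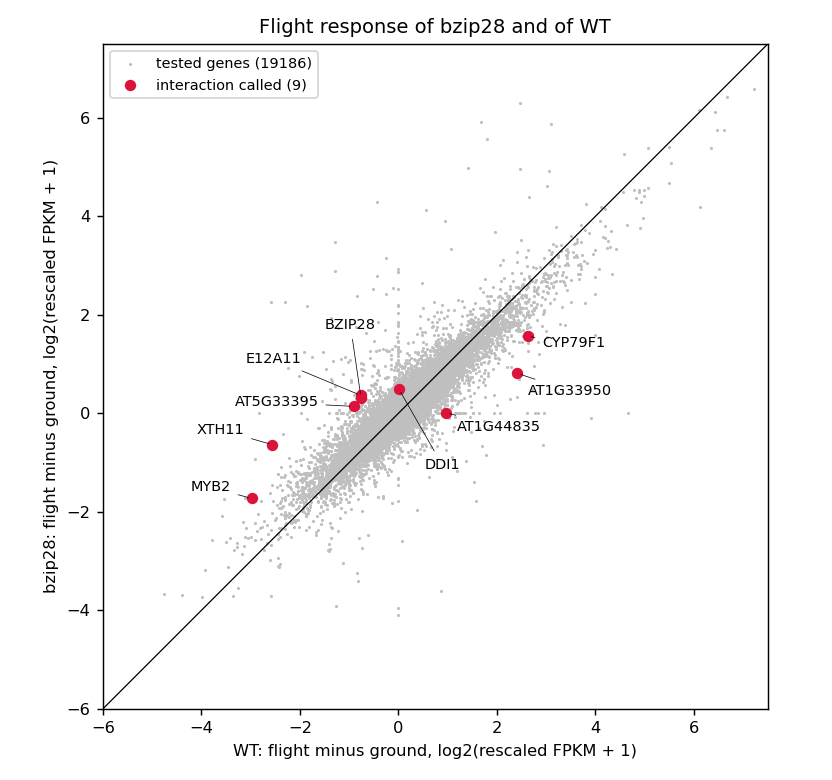
Flight minus ground on the log2(rescaled FPKM + 1) scale, in bzip28 on the vertical axis and in WT on the horizontal axis, for the 19186 tested genes in grey; the line marks equal responses. The 9 genes with a called response difference are in red, 6 above the line and 3 below it, and most other genes lie along it.

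A response difference also equals the bzip28 minus WT difference in flight minus that on the ground, so both differences were read from the same libraries. On the ground 641 genes (3.34%) were called between bzip28 and WT, 218 higher (1.14%) and 423 lower (2.2%). In flight 35 were called (0.182%), 2 higher (0.0104%) and 33 lower (0.172%). Of the 1506 genes with an unadjusted p below 0.05 for the response difference, 1273 had the larger genotype difference on the ground. Over all tested genes 64.6% did. The fit shares its estimate of spread across all groups, but ground libraries varied more. Their median within-group SD was 0.210 in bzip28 and 0.186 in WT, against 0.132 and 0.145 in flight. Larger spread on the ground raises ground calls and ground differences by itself, and its part in these counts was not tested.

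The 9 called genes fell into 4 shapes: alike in flight with bzip28 lower on the ground, near 0 on the ground and lower in bzip28 in flight, near absent in bzip28 throughout, and BZIP28 itself. All values are given as rescaled FPKM for replicates 1 to 4. MYB2, E12A11, DDI1, AT1G33950 and AT5G33395 are named because they were called, after their values were seen. The 4 genes taken first had the first shape.

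XTH11 (AT3G48580; TAIR10.1 chromosome 3, 18007098 to 18008535), annotated as a xyloglucan endotransglucosylase/hydrolase, a class of enzymes that remodels cell wall xyloglucan, had the largest called difference. It was at 0.801, 1.69, 1.08 and 1.50 in bzip28 flight and 3.42, 2.1, 1.88 and 2.72 in bzip28 ground libraries, against 1.28, 0.775, 1.59 and 1.26 in WT flight and 9.82, 8.38, 13.5 and 18.3 in WT libraries on the ground. The flight libraries of the genotypes overlapped, while every WT ground library lay above every bzip28 ground library. It fell by 0.64 in bzip28 flight (SE 0.22) and by 2.56 in WT flight (SE 0.22), a response difference of 1.92 (SE 0.31, adjusted p = 0.0020).

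MYB2 (AT2G47190; chromosome 2, 19375985 to 19377543) encodes a MYB transcription factor known from responses to abscisic acid and dehydration. It was at 0.864, 0.938, 1.22 and 1.86 in bzip28 flight and 5.80, 5.56, 7.04 and 6.75 in bzip28 ground libraries, against 0.873, 0.723, 0.833 and 1.00 in WT flight and 13.1, 12.7, 17.1 and 12 in WT libraries on the ground. Again the flight libraries overlapped and the ground libraries did not. Both genotypes fell in flight, by 1.73 in bzip28 and by 2.97 in WT, and the response difference was 1.25 (SE 0.20, adjusted p = 0.0028).

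E12A11 (AT1G18100, also named MFT; chromosome 1, 6227217 to 6230194) encodes a phosphatidylethanolamine-binding protein of the FT and TFL1 family, known from abscisic acid signalling in seeds. Its values were 3.2, 3.13, 2.70 and 3.13 in bzip28 flight and 2.77, 2.29, 2.04 and 1.56 in bzip28 ground libraries, against 3.52, 2.18, 2.93 and 3.14 in WT flight and 5.96, 5.29, 6.63 and 4.82 in WT libraries on the ground. The lowest WT ground library was above every bzip28 library, and the responses ran in opposite directions. E12A11 rose in bzip28 flight by 0.36 (SE 0.15, adjusted p = 0.031) and fell by 0.76 in WT flight (SE 0.15, adjusted p = 3.3e-05), a response difference of 1.13 (SE 0.21, adjusted p = 0.014). An annotated antisense transcript and the neighbour AT1G18090 overlap the gene, and the sources used here do not say whether strand was used in counting.

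DDI1 (AT3G13235; chromosome 3, 4271212 to 4274487), annotated as a ubiquitin family protein, was at 16.5, 18.4, 19 and 18 in bzip28 flight and 11.7, 12.1, 13.5 and 12.8 in bzip28 ground libraries. In WT it was at 17.5, 16, 17.7 and 16.1 in flight and at 17.7, 15.4, 16.2 and 17.5 on the ground. The bzip28 ground libraries lay below all the others, which overlapped. DDI1 rose by 0.49 in bzip28 flight (adjusted p = 1.8e-07), and in WT the flight minus ground value was 0.01 (adjusted p = 0.89); the response difference was 0.48 (SE 0.10, adjusted p = 0.040). It is the smallest called difference, it was called in 5 of 16 fits that each leave out 1 library, and its adjusted p in those fits reached 0.11. Without the 3 libraries of low scale factor DDI1 was at 0.45 and no longer called (adjusted p = 0.081). The gene overlaps AT3G13230 on the other strand.

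**Figure D2:**
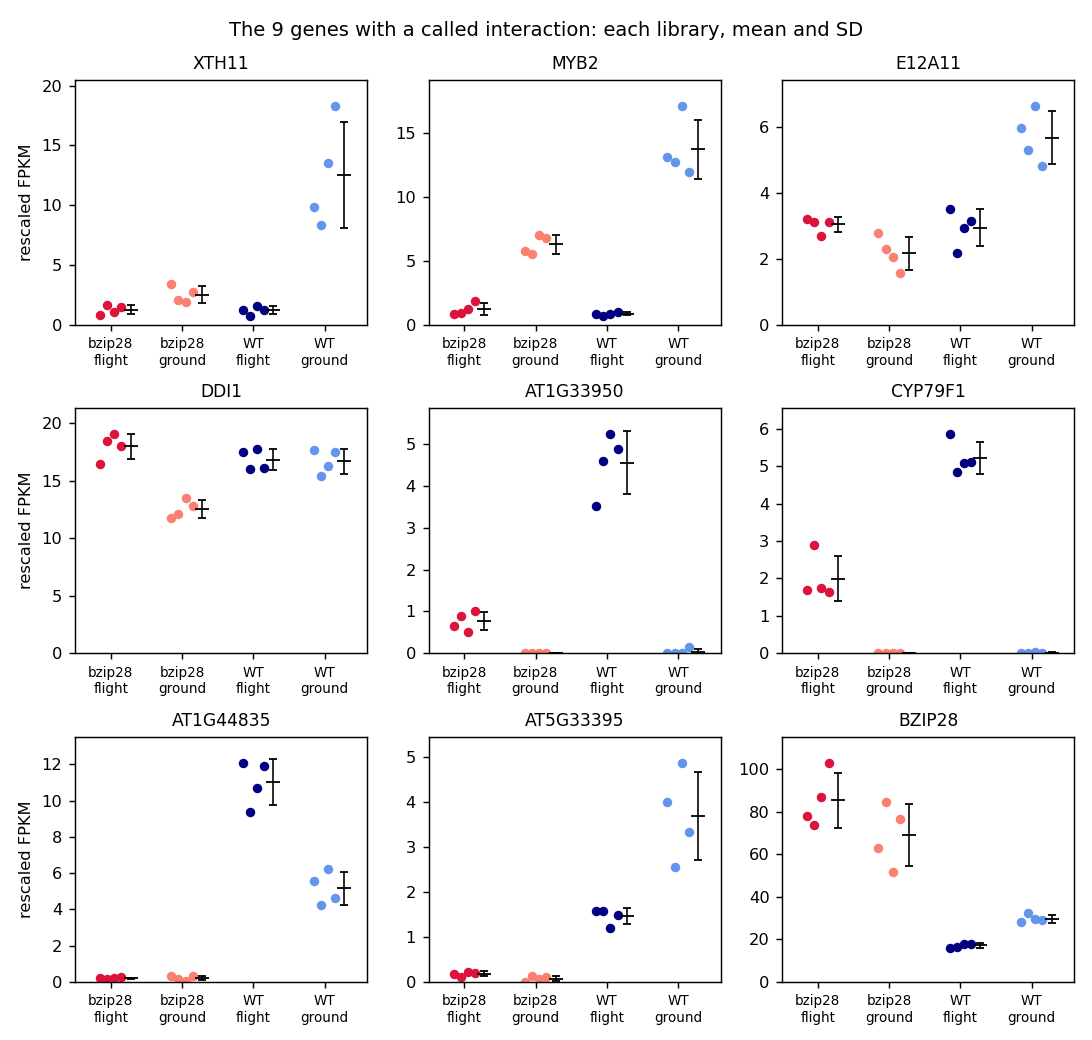
Rescaled FPKM of the 9 genes with a called response difference; points are single libraries, and bars give the mean and SD of the 4 libraries of a group. The top row and DDI1 show bzip28 ground libraries below WT ground libraries, AT1G33950 and CYP79F1 show bzip28 flight libraries below WT flight libraries, and BZIP28 is above WT in every bzip28 library.

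A pair of genes had values at or near 0 on the ground in both genotypes and a smaller rise in bzip28 flight. AT1G33950 (chromosome 1, 12332834 to 12340409), a member of the AIG1 family of GTP-binding proteins named for a gene induced by a bacterial avirulence factor, was at 0.660, 0.888, 0.512 and 1.00 in bzip28 flight libraries and listed at 0 in all 4 bzip28 ground libraries. In WT it was at 3.51, 4.60, 5.23 and 4.89 in flight, and on the ground it was listed at 0 in 3 libraries and at 0.142 in replicate 4. No bzip28 flight library reached the lowest WT flight library. It rose by 0.81 in bzip28 flight and by 2.42 in WT flight, and the response difference was -1.60 (SE 0.20, adjusted p = 6.1e-05). Its annotated neighbour AIG1 (AT1G33960) had the same shape, at 3.46, 5.51, 2.76 and 2.74 in bzip28 flight and 7.79, 12, 7.81 and 9.04 in WT flight and listed at 0 in all 8 ground libraries, with a response difference of -1.16 that missed the threshold (SE 0.25, adjusted p = 0.058). These are related genes of 1 family, and reads shared between them could be split by the authors' counting.

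CYP79F1 (AT1G16410; chromosome 1, 5608682 to 5612064), a cytochrome P450 that starts the synthesis of aliphatic glucosinolates from chain-elongated methionine, was at 1.69, 2.91, 1.75 and 1.65 in bzip28 flight libraries and listed at 0 in all 4 bzip28 ground libraries. It was at 5.85, 4.84, 5.09 and 5.13 in WT flight libraries, and on the ground it was listed at 0 in 3 WT libraries and at 0.0321 in replicate 3. The flight groups did not overlap. CYP79F1 rose by 1.56 in bzip28 flight and by 2.62 in WT flight, a response difference of -1.06 (SE 0.20, adjusted p = 0.014). The adjacent gene AT1G16400 (CYP79F2) is a close relative of CYP79F1, and reads shared between them could be split by the authors' counting. The response difference of AT1G16400 was -0.18 (adjusted p = 0.84, limma). A listed 0 in an FPKM table can also be a failed estimate, and a change of log2(FPKM + 1) understates the fold of genes this low.

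A pair of loci was close to absent in bzip28 in both conditions, so that only WT had a response to measure. AT1G44835 (chromosome 1, 16939692 to 16942558), annotated with a YbaK domain of the kind associated with aminoacyl-tRNA synthetases, was at 0.198, 0.168, 0.203 and 0.239 in bzip28 flight and 0.295, 0.138, 0.0617 and 0.293 in bzip28 ground libraries. In WT it was at 12.1, 9.39, 10.7 and 11.9 in flight and at 5.55, 4.22, 6.22 and 4.64 on the ground. Every WT flight library was above every WT ground library, and all 8 bzip28 libraries were below both. The response difference of -0.96 (SE 0.15, adjusted p = 0.0013) is close to the WT response with its sign turned. In the other mutants, bzip28bzip60 with the same bzip28-2 allele among them, the group means ran from 5.55 to 11.1.

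The annotated pseudogene AT5G33395 (chromosome 5, 12664506 to 12666192) was at 0.178, 0.106, 0.227 and 0.195 in bzip28 flight and at 0, 0.117, 0.0503 and 0.102 in bzip28 ground libraries, against 1.57, 1.58, 1.2 and 1.49 in WT flight and 3.99, 2.54, 4.86 and 3.33 in WT libraries on the ground. The genotypes did not overlap in either condition, and WT fell in flight by 0.91 (adjusted p = 2.5e-06). The response difference was 1.05 (SE 0.21, adjusted p = 0.036). It was called in 5 of 16 fits that leave out 1 library. Its neighbour AT5G33390, annotated as a glycine-rich protein, had a response difference of 1.09 (SE 0.34, adjusted p = 0.35).

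BZIP28 was higher in bzip28 in both conditions, by the values given above. It rose by 0.32 in bzip28 flight (SE 0.10, adjusted p = 0.0079) and fell by 0.76 in WT flight (SE 0.10, adjusted p = 9.7e-08), a response difference of 1.08 (SE 0.14, adjusted p = 1.2e-04). Within bzip28 the flight libraries overlapped the ground libraries, and within WT they did not.

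Across processing, BZIP28, AT1G33950, AT1G44835, XTH11 and MYB2 stayed called in all 16 fits that leave out 1 library. On the deposited scale without rescaling, XTH11 (1.89), AT1G33950 (-1.82), AT1G44835 (-1.60) and CYP79F1 (-1.20) stayed called, and the value of AT1G44835 grew by over 1.5 times. The other 5 were not called there, though MYB2 (1.34), BZIP28 (1.23), E12A11 (1.1) and DDI1 (0.57) had values about as large as after rescaling, while AT5G33395 was smaller at 0.50. Sequencing lane, read from the sample titles, was not balanced: lane 4 was the only lane with all 4 groups, with 1 or 2 libraries each. There all 9 genes kept their sign, with XTH11 at 1.65, MYB2 at 1.33, E12A11 at 1.14, BZIP28 at 0.77, DDI1 at 0.45, AT5G33395 at 1.39, AT1G33950 at -1.83, CYP79F1 at -1.14 and AT1G44835 at -0.86 and no test. The genes were called from these same libraries among the 16, so the kept signs are no independent support. The part of lane in the pooled values was not tested beyond a fit with lane as a term, in which 6 of the 9 were called. CYP79F1 was among those lost there (adjusted p = 0.10), and it was also lost with library weights (adjusted p = 0.077, limma). With only the 16 libraries in the fit, AT1G33950 alone stayed called (adjusted p = 0.0044), so XTH11, BZIP28 and the others were lost. None of the 9 lay within 3 annotated genes of another of them.

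The relays of the UPR showed no called response difference other than BZIP28 itself. Of 15 listed transducers and regulators, 14 were tested. In bzip28 flight 8 fell and 1 (BZIP28) rose (24.2% and 35.1% of all tested genes). In WT flight 10 fell and none rose (24.9% and 35.5% of all). The median response difference was 0.041, against -0.000505 over all tested genes, and 10 of 14 were above 0 (49.8% of all tested genes). BZIP60, the transcription factor whose messenger IRE1 splices, was at 24.4, 31.9, 30.2 and 30.1 in bzip28 flight and 64.5, 60.1, 72.1 and 56.0 in bzip28 ground libraries, against 23.2, 28.2, 30 and 28.2 in WT flight and 71.9, 69.8, 64.6 and 69.1 in WT libraries on the ground. Flight and ground did not overlap in either genotype, and the genotypes overlapped in both conditions. It fell by 1.09 in bzip28 flight and by 1.3 in WT flight, a response difference of 0.21 with an interval from -0.11 to 0.54.

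IRE1A averaged 27.5 ± 0.957 in bzip28 flight and 42.6 ± 2.08 in bzip28 ground libraries, against 27.1 ± 1.83 in WT flight and 42.7 ± 2.2 in WT libraries on the ground (SD, n = 4 each). It fell in flight in both genotypes, by 0.61 in bzip28 and by 0.64 in WT, and the response difference of 0.03 had an interval from -0.18 to 0.23. For IRE1B the response difference was 0.01 (interval -0.29 to 0.31). S1P and S2P, the proteases that release bZIP28, had response differences of -0.09 and -0.17, and BZIP17, a close relative of bZIP28, -0.03; none was called. S1P fell in flight in both genotypes, by 0.47 in bzip28 and by 0.39 in WT.

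TIN1 (AT5G64510), a UPR target named for its induction by the ER stressor tunicamycin, had the second largest value of this list. It was at 1.71, 1.51, 2.19 and 2.83 in bzip28 flight and 1.54, 1.94, 1.99 and 2.11 in bzip28 ground libraries, against 1.83, 1.28, 1.90 and 1.77 in WT flight and 2.69, 2.91, 3.49 and 4.70 in WT libraries on the ground. The WT ground libraries lay above all bzip28 ground libraries, and in flight the genotypes overlapped. TIN1 was lower in bzip28 on the ground by 0.60 (SE 0.14, adjusted p = 0.011), while the response difference of 0.77 was not called (SE 0.20, adjusted p = 0.17).

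The chaperones and folding enzymes of the ER leaned in 1 direction without a single called member. Of 24 listed genes 23 were tested; BIP3 averaged under 1 FPKM and was not. In bzip28 flight 15 rose and none fell (35.1% and 24.2% of all tested genes), and in WT flight 10 rose and 1 fell (35.5% and 24.9% of all). The response difference was above 0 for 22 of 23 (49.8% of all tested genes), with a median of 0.21 (all tested -0.000505), and 0 of 23 passed the adjusted test in limma. At an unadjusted p below 0.05 there were 6 of 23, all higher (4.06% of all tested genes). Members that work as one chaperone system are not independent of each other, and the list was chosen with earlier results of these data known.

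Set against WT within each condition, bzip28 had mostly lower values in both, with the larger differences on the ground. On the ground 9 of 23 were called lower in bzip28 (2.2% of all tested genes) and none higher (1.14% of all), with a median difference of -0.26. All 23 ground values were below 0, against 48.6% of all tested genes. In flight 22 of 23 values were below 0, against 48.9% of all tested genes, with a median difference of -0.08, and none of 23 was called (0.182% of all). For the response difference, 20 to 23 genes were above 0 over the alternative settings, of 21 to 24 tested, and 19 of 23 in lane 4 alone. A shared shift between bzip28 and WT was not particular to this list. All 15 tested hypoxia genes were below 0 in both conditions, with medians of -0.43 on the ground and -0.56 in flight. Nuclear photosynthesis genes went the other way, with 0 of 31 below 0 on the ground.

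**Figure D3:**
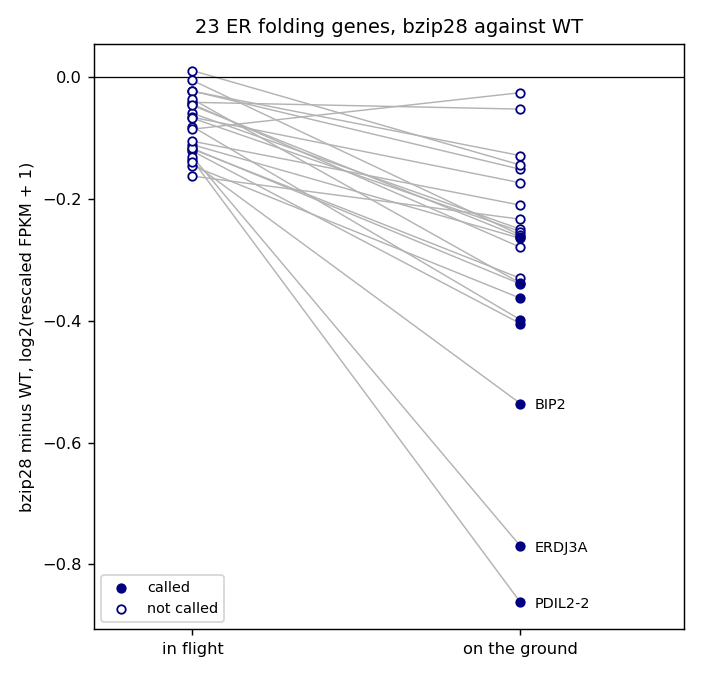
Differences bzip28 minus WT on the log2(rescaled FPKM + 1) scale for the 23 tested ER folding genes, in flight on the left and on the ground on the right, with a line joining the values of a gene; filled points passed the adjusted test. In flight 22 of 23 values lie below 0, close to it, and on the ground all 23 lie below 0, with PDIL2-2, ERDJ3A and BIP2 lowest.

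PDIL2-2 (AT1G04980), a protein disulfide isomerase, came closest to the threshold. It was at 8.14, 7.04, 6.78 and 7.26 in bzip28 flight and 2.84, 2.93, 3.58 and 3.62 in bzip28 ground libraries, against 8.63, 7.24, 8.99 and 7.69 in WT flight and 5.89, 7.75, 6.47 and 6.75 in WT libraries on the ground. The bzip28 ground libraries lay below all the others. It rose by 0.97 in bzip28 flight and by 0.25 in WT flight, and the response difference was 0.73 (SE 0.15, adjusted p = 0.0503). It was called in 4 of 16 fits that leave out 1 library, and without the 3 libraries of low scale factor it was at 0.54 (adjusted p = 0.23).

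BIP2 (AT5G42020), an HSP70 chaperone of the ER lumen, was at 36.2, 35, 35.8 and 35.6 in bzip28 flight and 22.0, 19.3, 21.5 and 19.8 in bzip28 ground libraries, against 36.7, 37.6, 39.3 and 44.4 in WT flight and 33.2, 26.6, 28.0 and 34.3 in WT libraries on the ground. In each condition every bzip28 library was below every WT library, by a wider gap on the ground. BIP2 was lower in bzip28 on the ground by 0.54 (SE 0.08, adjusted p = 5.0e-05), and in flight the difference was -0.14 (SE 0.08, adjusted p = 1). The response difference was 0.40 (SE 0.11, adjusted p = 0.24).

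BIP1 (AT5G28540), its near-identical copy, was at 57.0, 60.9, 59.3 and 60.8 in bzip28 flight and 42.4, 46.5, 54.5 and 47.4 in bzip28 ground libraries, against 55.8, 62.4, 64.8 and 61.4 in WT flight and 63.3, 58.7, 56.0 and 63.5 in WT libraries on the ground. The bzip28 ground libraries were the lowest group. BIP1 rose by 0.32 in bzip28 flight (adjusted p = 1.1e-04), its WT value was 0.02 (adjusted p = 0.84), and the response difference was 0.30 (SE 0.09, adjusted p = 0.33). Reads shared by BIP1 and BIP2 make the split between them uncertain.

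ERDJ3A (AT3G08970), a J-domain partner of BiP, was at 1.50, 1.31, 1.31 and 1.48 in bzip28 flight and 1.29, 2.13, 2.48 and 1.63 in bzip28 ground libraries, against 1.22, 2.01, 1.98 and 1.39 in WT flight and 4.12, 4.00, 4.00 and 3.32 in WT libraries on the ground. The WT ground libraries stood above all others. A gene on the other strand, AT3G08960, overlaps it. It was lower in bzip28 on the ground by 0.77 (SE 0.14, adjusted p = 0.0012), it fell by 0.89 in WT flight, and the response difference was 0.64 (SE 0.20, adjusted p = 0.36).

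PDIL1-1, PDIL2-1, PDIL1-2, CNX1 and CRT1B were the other members lower in bzip28 on the ground, by 0.40, 0.36, 0.40, 0.26 and 0.26. Their response differences were 0.32 for PDIL1-1, 0.22 for PDIL2-1, 0.28 for PDIL1-2, 0.22 for the lectin chaperone calnexin CNX1 and 0.15 for the calreticulin CRT1B, with adjusted p from 0.48 to 0.70. SHD (AT4G24190), the ER form of HSP90, rose by 0.92 in bzip28 flight and by 0.68 in WT flight, with a response difference of 0.24 (SE 0.13, adjusted p = 0.70). The calreticulin CRT3 had a response difference of 0.01 and ERO2, a thiol oxidase that recharges disulfide isomerases, -0.06, the only value below 0.

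**Figure D4:**
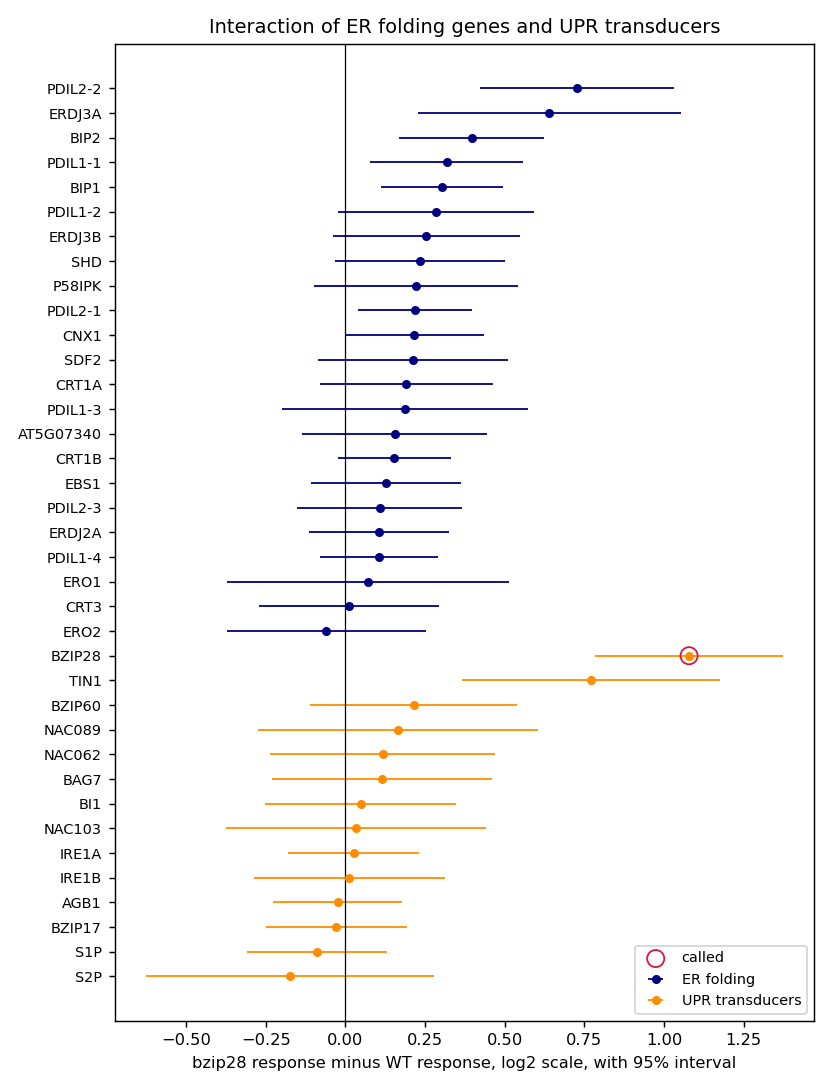
Response difference, bzip28 minus WT, on the log2 scale with its 95% interval for the 23 tested ER folding genes in blue and the 14 tested UPR transducers in orange. The circle marks BZIP28, the only called gene; 22 of the 23 folding genes lie to the right of 0, from 0.01 to 0.73.

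The 300 bases upstream of each annotated gene start were searched on both strands, because bZIP28 is known to bind the ER stress response element together with nuclear factor Y. The motifs were ERSE-I (CCAATNNNNNNNNNNCACG), ERSE-II (ATTGG, any 1 base, CACG), the UPR element as TGACGTGG or TGACGTGA, and the G-box CACGTG, which overlaps other motifs at some sites. ERSE-I was in 7 of 24 promoters of the ER folding list (29.2%), against 205 of 27443 protein-coding promoters (0.747%). TGACGTGG was in 4 of 24 (16.7%), against 1.33% of all, and the G-box in 7 of 24 (29.2%), against 7.09%. ERSE-II was in none of the 24, against 0.12% of all. None of the 9 genes with a called response difference held any of the 5 motifs in this window. Even the most frequent motif, the G-box, was in only 7.09% of all promoters, so 0 of 9 is near the share over all. Among the folding genes called lower in bzip28 on the ground, only PDIL1-1 and PDIL1-2 held a motif. PDIL2-2, BIP2, BIP1, ERDJ3A, PDIL2-1, CNX1 and CRT1B held none of the 5. A match here is a description of letters, and no match says only that these letters are not in this window.

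The promoters of 4 genes are shown as examples of the motif matches, picked after the matches were seen: 3 folding genes with an ERSE-I, and TIN1 with several UPR elements. ERSE-I was also in the windows of SHD, CRT1A, EBS1 and BIP3, which are not printed. They read 5' to 3' in the direction of the gene, from RefSeq TAIR10.1, and capitals mark the motif matches with the spacer bases of ERSE-I. PDIL1-1 (chr1:7645310-7645609, plus strand) holds an ERSE-I that begins 187 bases upstream and TGACGTGG 205 bases upstream, both on the opposite strand. PDIL1-2 (chr1:29126348-29126647, plus strand) holds an ERSE-I 64 bases upstream that runs into a G-box 49 bases upstream. P58IPK (chr5:749801-750100, plus strand), another J-domain protein with a response difference of 0.22 (adjusted p = 0.79), holds an ERSE-I 119 and another 59 bases upstream, both on the opposite strand, and a G-box 61 bases upstream that overlaps the nearer one. TIN1 (chr5:25784104-25784403, plus strand; the window overlaps a transfer RNA gene) holds TGACGTGA 267 and TGACGTGG 133 and 69 bases upstream, all on the opposite strand.
PDIL1-1: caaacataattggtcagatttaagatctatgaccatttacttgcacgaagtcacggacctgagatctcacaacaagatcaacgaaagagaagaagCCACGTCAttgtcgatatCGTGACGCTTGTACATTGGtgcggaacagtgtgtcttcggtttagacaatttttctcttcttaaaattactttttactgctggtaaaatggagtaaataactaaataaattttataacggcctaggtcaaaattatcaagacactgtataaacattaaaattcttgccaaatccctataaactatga
PDIL1-2: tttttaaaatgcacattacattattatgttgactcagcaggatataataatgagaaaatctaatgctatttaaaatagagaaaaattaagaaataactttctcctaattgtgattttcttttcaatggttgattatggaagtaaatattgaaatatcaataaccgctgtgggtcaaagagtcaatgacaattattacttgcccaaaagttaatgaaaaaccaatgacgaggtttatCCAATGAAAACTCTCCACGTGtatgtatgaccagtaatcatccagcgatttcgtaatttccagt
P58IPK: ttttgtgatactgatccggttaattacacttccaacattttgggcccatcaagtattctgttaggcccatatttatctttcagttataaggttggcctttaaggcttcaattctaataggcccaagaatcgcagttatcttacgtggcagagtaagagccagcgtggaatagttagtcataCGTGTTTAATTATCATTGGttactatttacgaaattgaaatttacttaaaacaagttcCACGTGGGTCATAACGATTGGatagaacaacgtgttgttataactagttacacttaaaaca
TIN1: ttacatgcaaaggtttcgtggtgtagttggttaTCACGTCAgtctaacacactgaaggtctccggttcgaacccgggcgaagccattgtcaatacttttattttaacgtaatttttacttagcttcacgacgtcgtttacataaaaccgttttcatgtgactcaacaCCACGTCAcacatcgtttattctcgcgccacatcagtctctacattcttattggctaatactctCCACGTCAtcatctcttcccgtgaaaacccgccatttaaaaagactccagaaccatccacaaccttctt

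Genes of ER-associated degradation and translocation had response differences on both sides of 0. Of 11 genes tested, 1 rose and 5 fell in bzip28 flight (35.1% and 24.2% of all tested genes). In WT flight 1 rose and 5 fell (35.5% and 24.9% of all). The response difference was called for none of 11, 5 were above 0, and the median was -0.0051. For all 11 the interval lay within 1 log2 unit of 0.

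Among the other 16 pathway lists, 1 gene passed the test for the response difference, CYP79F1. The glucosinolate and sulfur list had 12 of 13 members rising in bzip28 flight (35.1% of all tested genes) and 12 of 13 in WT flight (35.5% of all). Its response differences were below 0 for 10 of 13 (50.1% of all tested genes), with a median of -0.16. MYB28, the regulator of aliphatic glucosinolate genes, averaged 11.7 in bzip28 flight and 0.148 in bzip28 ground libraries, against 12.1 in WT flight and 0.0529 in WT libraries on the ground, and its response difference was -0.16 (adjusted p = 0.87). The values of MAM1 and CYP83A1, enzymes of chain elongation and of the step after CYP79F1, were -0.57 (adjusted p = 0.48) and -0.62 (adjusted p = 0.33). CYP79B2, of the indole branch, was at -1 (adjusted p = 0.46).

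Cytosolic heat shock genes had the largest median of all lists, 0.46, with 18 of 19 above 0 (49.8% of all tested genes), 8 of 19 higher at an unadjusted p below 0.05 (4.06% of all) and 0 of 19 called in limma. In bzip28 flight 5 of 19 rose and 6 of 19 fell (35.1% and 24.2% of all tested genes). In WT flight 3 rose and 11 fell (35.5% and 24.9% of all). DREB2A, a transcription factor of heat and drought responses, averaged 56.2 in bzip28 flight and 85.1 in bzip28 ground libraries, against 32.3 in WT flight and 124 in WT libraries on the ground, with a response difference of 1.23 (adjusted p = 0.54). HSP101, a disaggregase, rose by 0.67 in bzip28 flight, with a WT value of -0.02 and a response difference of 0.69 (adjusted p = 0.57).

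Nuclear photosynthesis genes leaned the other way. Of 31 tested, 27 rose in bzip28 flight (35.1% of all tested genes) and 30 in WT flight (35.5% of all). The response difference was below 0 for 29 (50.1% of all tested genes), with a median of -0.30. At an unadjusted p below 0.05, 5 were lower (3.79% of all), and none was called. On the ground the bzip28 value was above that of WT in all 31, so 0 of 31 were below it (48.6% of all tested genes). There 1 was called higher (1.14% of all), the light-harvesting gene LHCB1.3. It was at 115 ± 35.8 in bzip28 ground against 49.4 ± 20.5 in WT ground libraries (SD, n = 4 each). Its response difference was -1.19 (adjusted p = 0.35).

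Marker lists of other tissues were read beside these lists. The summed level of 7 shoot epidermis markers was 458 to 612 rescaled FPKM in bzip28 flight and 156 to 186 in bzip28 ground libraries, against 511 to 711 in WT flight and 97.2 to 187 in WT ground libraries. The vascular sum was 118 to 141 in bzip28 flight and 57.1 to 99.2 in bzip28 ground libraries, against 101 to 167 and 75.0 to 88.7 in the WT flight and ground libraries. The medians of the response difference were -0.39 for shoot epidermis, -0.48 for 7 vascular and -0.07 for 7 tested root markers, with none called and no marker of these 3 lists at 0 in any of the 16 libraries. The 11 seed and embryo markers all averaged under 1 FPKM and summed to at most 10 in any library, highest in bzip28 ground replicate 3. The part of tissue make-up in the lists above was not tested.

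Of the remaining pathway lists, none had a called response difference. Medians above 0 were 0.41 for abscisic acid, drought and cold genes (10 of 12 above 0), 0.31 for jasmonate and wounding (11 of 12), 0.22 for sugar and dark starvation (15 of 19), 0.16 for glyoxylate and lipid breakdown (10 of 12) and 0.10 for the clock (9 of 13). The dark starvation genes fell in both genotypes, 16 of 19 in bzip28 flight and 17 of 19 in WT flight (24.2% and 24.9% of all tested genes). Medians below 0 were -0.29 for auxin response (14 of 17 below 0), -0.17 for hypoxia (10 of 15), -0.14 for salicylate and defence (7 of 12) and -0.11 for phosphate, iron and nitrate (8 of 12). Oxidative stress, cell wall loosening, cytosolic ribosomal proteins and flavonoid genes had medians between -0.03 and 0.06. All 20 ribosomal protein genes had intervals within 1 log2 unit of 0. Plastid-encoded genes had a median of -0.18 over 94 tested and mitochondrion-encoded genes 0.05 over 61, and few of these had an interval within 1 log2 unit of 0 (2 and 12).

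**Figure D5:**
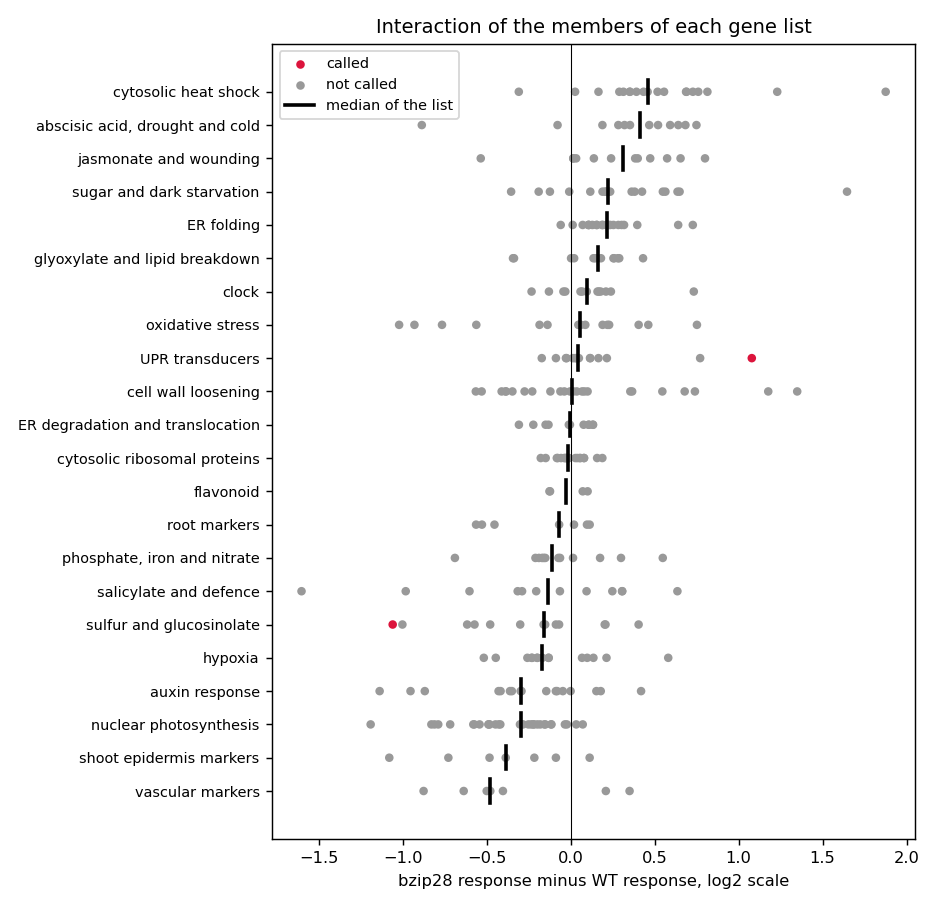
Response difference, bzip28 minus WT, on the log2 scale for every tested member of 22 gene lists, with lists ordered by their median (black bar). The called members, BZIP28 and CYP79F1, are in red; heat shock genes have the highest median at 0.46 and vascular markers the lowest at -0.48.

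Genes just outside the threshold, with adjusted p between 0.05 and 0.06 (limma), were 8 in number and were read after their values were seen. Besides PDIL2-2 and AIG1 they were NIT4 (1.09, adjusted p = 0.0504), a nitrilase of cyanide detoxification, AT3G05400 (1.1, adjusted p = 0.0572) and AT3G55840 (0.55, adjusted p = 0.0566) above 0. Below 0 they were AT2G36400, the growth-regulating factor GRF3 (-0.67, adjusted p = 0.0504), AT5G47455 (-1.08, adjusted p = 0.0504) and AT3G06035 (-1.07, adjusted p = 0.0572).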

How the data were processed

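Messenger RNA of whole seedlings was sequenced in 40 libraries (5 genotypes, flight and ground, 4 each); 4 further labelled samples have no column and were not analysed here. The deposited values are FPKM per locus, made by the authors with Cufflinks 1.3.0 after FastQC 0.11.5, cutadapt 1.8.1, Bowtie2 2.2.4 and TopHat2 2.0.14 against TAIR10, per the submitters' processing notes. The kit was stranded per the labels; strand use in counting is not given in the sources used here. The design text gives 4 biological replicates.

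FPKM were rescaled by median ratios over 14104 genes above 1 FPKM in all libraries. log2(rescaled FPKM + 1) was fitted with limma 3.58.1 (R 4.3.3; lmFit, eBayes with trend), 10 group means on 40 libraries with 30 residual degrees of freedom, for 19186 of 34133 loci with a mean of at least 1 FPKM. Benjamini-Hochberg adjustment ran over all of them, with calls below 0.05. Standard errors are the moderated ones of the fit, and intervals are at 95%. Depth is unknown, so no counting interval is given. The pseudocount understates the change of low genes.

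Tested on simulated data over 19186 genes for this response difference, the fit recovered 69 of 100 genes changed by 1 log2 unit and 98 of 100 changed by 2, with 5 unchanged genes called. The simulated noise was normal, independent between genes, and equal in spread for all groups of a gene. The real ground libraries varied more than the flight libraries, and shifts shared by the genes of a library were not simulated. These rates therefore may not hold for the real libraries.

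Genes were named if called with and without rescaling, called in every fit leaving out 1 library, and at 5 FPKM or more in 1 group (AT1G44835 and XTH11), or as called members of a list; the UPR and ER folding genes were read in all cases. The members and all lists were chosen with earlier results of these data known. Names, positions and promoter sequences (300 bases) come from RefSeq TAIR10.1, in which 31510 loci matched a locus tag. Scaling, pseudocount, filter, libraries in the fit, weights, replicate number, position letter, lane and single libraries were varied. Replicate numbers were checked for pairing: 1 of 24 pairs of same-numbered libraries had a correlation above 0.1 (range -0.107 to 0.123), so they were not used as pairs. The titles also carry position codes that recur in flight and ground. Numbers follow these codes in bzip28, but in WT replicate 3 is C3 in flight and D4 on the ground. WT replicate 4 is D4 in flight and D6 on the ground. The check by number therefore cannot decide on pairing by position, which was not checked.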

Additional observations from a re-analysis of the deposited data

Results flagged for a closer look

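All 9 response differences between bzip28 and WT that passed the adjusted test count as flagged, because the difference itself was tested: XTH11 at 1.92, MYB2 at 1.25, E12A11 at 1.13, BZIP28 at 1.08, AT5G33395 at 1.05, DDI1 at 0.476, AT1G44835 at -0.961, CYP79F1 at -1.06 and AT1G33950 at -1.6 (log2 scale).

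In 56 groups of 4 libraries screened, 5 held a library far from the other 3. Chance flags about 1 group in 20 where values spread normally, which does not hold for groups at the floor. A group with 3 values at 0 is flagged whatever its remaining value, as for CYP79F1 and AT1G33950 in WT ground libraries. The count of flags was therefore not compared with that rate. CYP79F1 was at 2.91 rescaled FPKM in bzip28 flight replicate 2, above the other 3 bzip28 flight libraries, and at 0.0321 in WT ground replicate 3, where the other 3 were listed at 0. AT1G33950 was at 0.142 in WT ground replicate 4 with the other 3 listed at 0. E12A11 was at 2.7 in bzip28 flight replicate 3, below the other 3. IRE1A was at 39.4 in WT ground replicate 1, below the other 3.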

How the results depend on the processing

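None of the 9 called genes changed sign under any alternative run. The runs reuse the libraries that gave the calls, so a kept sign is no independent support. The counts of calls (6 higher, 3 lower) moved with the processing, and the cause was not tested unless given here. On the deposited FPKM without rescaling, which moved the median of all genes to 0.0909, there were 1 higher and 3 lower and 4 of the 9 were called. With a pseudocount of 0.1 there were 4 higher and 0 lower (797 and 729 at an unadjusted p below 0.05) and 4 of the 9. With a mean of at least 5 FPKM, which tests 13827 genes, there were 1 higher, 1 lower and 2 of the 9. With only the 16 libraries, which leaves fewer residual degrees of freedom, there were 0 higher (731 at an unadjusted p below 0.05), 1 lower and 1 of the 9, AT1G33950. Library weights gave 14 higher and 8 lower, lane as a covariate 10 higher and 4 lower, no filter 9 higher and 3 lower, upper-quartile scaling 8 higher and 4 lower, and the position letter as a block 7 higher and 3 lower. The replicate number as a replicate block gave 15 higher and 10 lower, with all 9 called; 6 of 16 libraries correlated best with their own number. Leaving out 1 library gave 3 to 21 higher, 2 to 10 lower and 6 to 9 of the 9. Without the 3 libraries of low scale factor, a setting chosen after seeing the data, there were 14 higher, 18 lower and 8 of the 9, DDI1 being lost. Lower calls outnumbered higher ones on the deposited scale, with only the 16 libraries, without these 3 libraries, and without bzip28 ground replicate 2 (6 higher, 10 lower), WT flight replicate 2 (3 higher, 5 lower) or WT ground replicate 3 (3 higher, 4 lower). With a pseudocount of 0.1 the lost calls were AT1G33950 at -2.13 (adjusted p = 0.102), AT5G33395 at 2.02, AT1G44835 at -0.98, CYP79F1 at -1.28 and DDI1 at 0.51 (limma). Depth is unknown, and with 4 libraries a group a difference under about 0.38 lies inside the 95% interval of the median gene. That interval is not adjusted for the number of genes tested, and a call asks for a larger difference.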

Other observations

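Every mutant in the series is set against the same WT libraries, so the other genotypes were read for the 9 genes as values, without a test. In ground libraries XTH11 averaged 4.86 ± 0.837 rescaled FPKM in bzip60, 5.97 ± 3.23 in bzip28bzip60 and 5.11 ± 1.34 in ire1aire1b, which lie between bzip28 ground (2.53 ± 0.692) and WT ground (12.5 ± 4.43; SD, n = 4 each). MYB2 averaged 5.83 ± 1.41 in bzip60 ground, 7.40 ± 0.784 in bzip28bzip60 ground and 9.19 ± 2.43 in ire1aire1b ground libraries, with bzip28 ground at 6.29 ± 0.719 and WT ground at 13.7 ± 2.3. E12A11 averaged 3.2 in bzip60, 4.21 in bzip28bzip60 and 6.41 in ire1aire1b ground libraries, and the last of these exceeded the 5.68 of WT ground. In flight the other mutants had CYP79F1 at 1.85 in bzip60, 2.03 in bzip28bzip60 and 2.05 in ire1aire1b, close to the 2 of bzip28 flight and below the 5.23 of WT flight. AT1G33950 was at 2.4, 1.86 and 1.02 in the same 3 flight groups, against 4.56 in WT flight. For these 5 genes most other mutants thus lay on the bzip28 side of WT, E12A11 in ire1aire1b being the exception.

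For DDI1 on the ground, and for AT1G44835 in both conditions, the bzip28 libraries lay below those of the other 3 mutants. DDI1 averaged 12.5 in bzip28 ground libraries, against 16.5 in bzip60, 16.7 in bzip28bzip60 and 16.3 in ire1aire1b ground libraries, and in flight it averaged 18 ± 1.08 in bzip28, against 17.2 ± 1.3 in bzip60, 16.1 ± 0.661 in bzip28bzip60 and 17.3 ± 0.968 in ire1aire1b. AT1G44835 averaged 0.202 in bzip28 flight libraries, against 10.8 to 11.1 in the flight libraries of these 3 mutants. AT5G33395 was low in bzip60 (0.48 flight, 0.721 ground) and bzip28bzip60 (0.259 flight, 0.386 ground) as well, and at 1.64 in flight and 2.88 on the ground in ire1aire1b.

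PDIL2-2, BIP2, ERDJ3A, TIN1 and BIP1 were read in the other mutants too, without a test. PDIL2-2 averaged 4.45 in bzip60, 3.38 in bzip28bzip60 and 4.9 in ire1aire1b ground libraries, against 6.71 in WT ground. BIP2 averaged 21.6, 17.8 and 24.5 in the same 3 groups, against 30.5 in WT ground. ERDJ3A averaged 1.18, 0.910 and 1.95, against 3.86 in WT ground and 1.88 in bzip28 ground. TIN1 averaged 1.73, 1.89 and 2.48, against 3.44 in WT ground and 1.89 in bzip28 ground. BIP1 averaged 51.2, 50.2 and 50.9, against 60.4 in WT ground and 47.7 in bzip28 ground. For these genes the other mutants also lay below WT on the ground.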
